A study of Mus musculus with 10 samples.

Results

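The transcripts of the proteasome were examined across follicle cells of the mouse ovary. The members are the 37 genes whose symbols begin with Psma, Psmb, Psmc or Psmd followed by a number, without the immunoproteasome genes Psmb8 and Psmb9, among 23234 symbols in the expression table. They are 17 genes of the core particle (8 of the alpha rings, 9 of the beta rings) and 20 of the regulatory particle (6 ATPases and 3 other subunits of its base, 8 subunits of its lid, and 3 chaperones that assist its assembly and carry Psmd symbols). RNA had been sequenced from 10 libraries in 5 groups. Cumulus cells, the granulosa cells that enclose the oocyte, came from C57BL/6 mice aged 2 months (n = 3 libraries) and 10 months (n = 3). Mural granulosa cells of the follicle wall were from C57BL/6 mice, also aged 2 months (n = 2). Whole cumulus-oocyte complexes, which hold an oocyte with its cumulus cells, came from BDF1 and DBA/2 mice aged 3 weeks and primed with the gonadotropin PMSG (n = 1 library each). All share a protocol text that gives a culture medium with milrinone, an inhibitor of phosphodiesterase. Mural cells were from mice primed with gonadotropin, per that text, which does not state whether the cumulus donors were primed.

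The proteasome degrades proteins that carry ubiquitin chains. Its core is a barrel of stacked rings: the outer alpha rings gate the entrance, and the inner beta rings carry the proteolytic sites, made by Psmb6 (caspase-like), Psmb7 (trypsin-like) and Psmb5 (chymotrypsin-like). The regulatory particle caps the barrel. Its base unfolds substrates with a ring of ATPases, and its lid removes the ubiquitin. Follicle cells use this machinery for the turnover of cell cycle and signalling proteins, and in the oocyte the proteasome is known for its part in meiotic progression.

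Levels are FPKM, fragments scaled by transcript length and by the fragments mapped in a library, so that levels of different genes can be set side by side. Summed over genes, FPKM ran from 470377 to 603460 per library. The mural libraries had sums of 482704 and 470377 and the cumulus libraries at 2 months 552361 to 603460. Read depth is not given in these sources. Markers followed the labels: cumulus markers together had 751 to 996 FPKM in the cumulus libraries at 2 months and 237 and 390.4 FPKM in the mural ones, whereas mural markers had 73.0 to 98.0 FPKM and 1973 and 3696 FPKM. Oocyte markers were uneven among the cumulus libraries at 2 months (257, 0.821 and 1353 FPKM in replicates 1, 2 and 3, with 9 of 12 markers at 0 in replicate 2) and summed to 3729 and 3694 FPKM in the complexes. Replicate 3 at 10 months stood apart in its mural markers (1058 FPKM, with 117 and 388 for replicates 1 and 2) and its erythroid markers (136 FPKM, with 23.2 and 21.9 for the others). Whether replicates are separate animals is not stated in the labels; p-values then measure only how these libraries vary, which may be technical. In RNA from bulk cells, fewer cells of a type and less RNA per cell cannot be told apart.

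The promoters of the members were searched for sites of regulators known from other cells. NFE2L1 and NFE2L2 bind the antioxidant response element, searched as TGACNNNGC. Nuclear respiratory factor 1, a different protein from NFE2L1, binds GC-rich palindromes, searched as GCGC and TGCGC with any 1 base between them. Both were read on both strands, from 250 bases before to 50 bases after the annotated start (RefSeq, build GRCm38.p6), and 30 of 37 members had a promoter in that table. The nuclear respiratory factor 1 letters stood in 6 of 30 members (20.0%) and in 5.19% of 27025 genes with a promoter. These windows show all 6, with the match in capitals, because the core and the regulatory particle both hold it. For Psma4 and Psmc5 the last 30 bases of the RefSeq promoter lay in no GENCODE M21 transcript of the gene, so their annotated start is uncertain.
Psma2 (chr13:14613105-14613134, + strand): ggcccctcttGCGCATGCGCaagggtcaaa
Psma3 (chr12:70974535-70974564, + strand): tatggtttctGCGCACGCGCgctctctgct
Psma4 (chr9:54950788-54950817, + strand): tcgcagtcctGCGCACGCGCgggagccata
Psmc4 (chr7:28050242-28050271, - strand): aagagttactGCGCACGCGCaacatccttg
Psmc5 (chr11:106256126-106256155, + strand): tttcgcctccGCGCCTGCGCgatagagtga
Psmd14 (chr2:61711604-61711633, + strand): caggcggcctGCGCGTGCGCtgtgtgctcc
The antioxidant response element letters stood in 5 of 30 members (16.7%: Psmb5, Psmb6, Psmc6, Psmd9 and Psmd12) and in 13.99% of all genes with a promoter. Windows of the catalytic genes Psmb5 and Psmb6 and of Psmd9, the member with the highest ratio in the complexes, are shown in the same way.
Psmb5 (chr14:54618024-54618052, - strand): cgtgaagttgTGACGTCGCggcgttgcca
Psmb6 (chr11:70525338-70525366, + strand): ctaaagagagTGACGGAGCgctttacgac
Psmd9 (chr5:123228149-123228177, + strand): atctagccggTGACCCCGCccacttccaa
The 250 bases before the start of Psma2, the member that differed most between mural and cumulus cells, are given whole (chr13:14612992-14613241, + strand), with its match, 127 bases before the start, in capitals.
Psma2 upstream: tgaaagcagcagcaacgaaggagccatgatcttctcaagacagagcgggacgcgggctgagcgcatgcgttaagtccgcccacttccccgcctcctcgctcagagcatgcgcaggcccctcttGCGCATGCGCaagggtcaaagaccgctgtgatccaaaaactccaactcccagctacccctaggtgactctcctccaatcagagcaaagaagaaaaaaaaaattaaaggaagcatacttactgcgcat
Member promoters had a median GC content of 55.8% and a median of 19.5 CpG, against 52.7% and 7 over all promoters, and the part of base composition in these shares was not tested. The nuclear respiratory factor 1 letters also stood in 17.9% of 67 genes of mitochondrial ribosomal proteins and in 2 of 7 cytosolic chaperonin genes. The antioxidant response element letters stood in 19.4% and in 3 of 7 of these genes, larger shares than among the members. No member held both motifs. A match describes letters in a window, not a bound site.

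**Figure D1:**
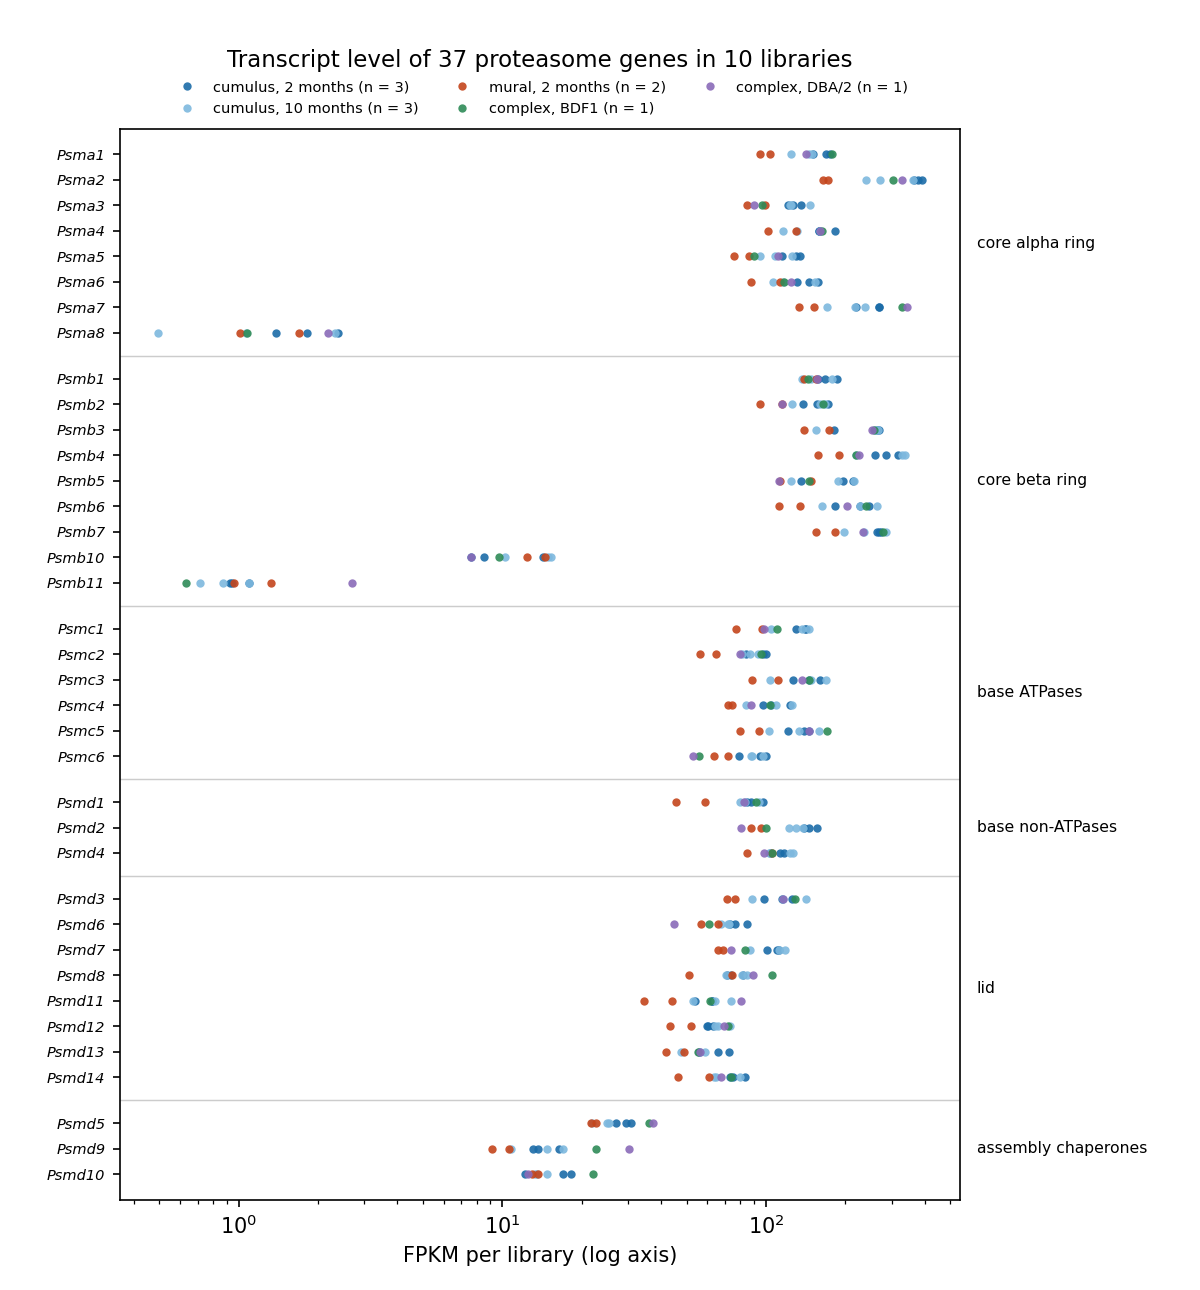
FPKM of the 37 proteasome genes (log axis), 1 point per library, ordered by their place in the complex and coloured by group. Psma2 reaches the highest level, 390.1 FPKM, while Psma8, Psmb10, Psmb11 and the 3 assembly chaperones stand lowest.

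In every library the median level of the core members was above that of the regulatory particle. Psma2, a subunit of the alpha ring, was the highest member in cumulus cells at 2 months, at 377 ± 13.5 FPKM (SD, n = 3), followed by Psmb4 of the beta ring at 287 ± 28.6 FPKM. In the base, group means at 2 months ran from 89.9 FPKM (Psmd1) to 147 FPKM (Psmd2), and in the lid from 59.6 FPKM (Psmd11) to 113 FPKM (Psmd3). The assembly chaperones Psmd5, Psmd9 and Psmd10, which are not part of the finished particle, stood at 29.1 ± 1.87, 14.4 ± 1.73 and 15.8 ± 3.13 FPKM. The order of the 36 tested members by level was similar in all groups (Spearman's rho across genes 0.918 to 0.986 over the 10 pairs of groups, without p, since the genes share libraries). In the complexes the highest member was another one: Psma7, also of the alpha ring, stood at 328 FPKM in BDF1 and 343 FPKM in DBA/2, and Psma2 at 302 and 328 FPKM.

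Forms of the core known from other tissues stood far below the standard subunits they replace. Psma8, an alpha subunit of the testis that takes the place of Psma7, stood at 0.495 to 2.39 FPKM over the 10 libraries, 0.291 to 1.26% of Psma7. Psmb11, the beta subunit of the thymic cortex that takes the place of Psmb5, stood at 0.633 to 2.70 FPKM, and was not tested because its mean over the C57BL/6 libraries was under 1 FPKM. Psmb10, the immunoproteasome form of Psmb7, stood at 7.62 to 15.3 FPKM. It came to 3.77 ± 1.28% of Psmb7 in cumulus cells at 2 months (SD, n = 3), 5.85 ± 2.03% at 10 months (n = 3) and 8.05 and 7.94% in the mural libraries. Both mural libraries were above every cumulus library in this ratio (2.89 to 5.24% at 2 months, 3.59 to 7.49% at 10 months). The 2 immunoproteasome genes outside the members showed no such order: Psmb9 came to 2.81 to 8.30% of Psmb6 and Psmb8 to 2.60 to 7.39% of Psmb5, and the mural libraries lay within both ranges.

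The members varied together over the 10 libraries. Of the 36 tested members, 30 had a Pearson correlation over 0.5 with the median of the other members (median 0.79), a description over libraries that share groups and scaling. Psmb10 had the lowest correlation, at -0.14. The spread of 29 of 36 members over the libraries was below the median spread of genes of similar level. Within a group the same library was low for most members: replicate 3 was the lowest cumulus library at 2 months for 30 of 36 members (47.6% of all genes tested), replicate 3 the lowest at 10 months for 33 of 36 (40.7%), and replicate 1 the lower mural library for 33 of 36 (51.7%). The low cumulus libraries were also those with the highest sum of oocyte markers in their age group, at 1353 and 416 FPKM. They had the lowest summed FPKM of their age group as well (552361 and 489474). Replicate 3 at 10 months was also highest in mural, immune, theca and stroma, endothelial, surface epithelium and erythroid markers. At 2 months replicate 3 was highest among these lists only for endothelial markers (5.15 FPKM). In the mural libraries oocyte markers summed to 173 FPKM in replicate 1 and 19.75 FPKM in replicate 2. Summed FPKM was higher in replicate 1 (482704 against 470377). The part of oocyte RNA, other cells or scaling in the level of the low libraries was not tested.

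The mural libraries were set against the cumulus libraries at 2 months. In this contrast priming with gonadotropin is stated for the mural donors only, so cell type and priming may not be separable. The part of priming in these values was not tested. Proteasome transcripts were lower in mural cells: 11 of 36 tested members passed as lower (adjusted p under 0.05, limma on log2(FPKM + 1)) and 0 as higher, or 30.6% lower, against 11.2% of all 12412 genes tested as lower and 9.69% as higher (20.9% in either direction). The fold change lay below 0 for 35 of 36 members (56.1% of all genes; 32 of 36 after rescaling to the same summed FPKM, and 34 with quantile normalization), and 27 members, all lower, were at an unadjusted p under 0.05 (20.5% of all genes as lower, 36.8% in either direction). Both mural libraries were below all 3 cumulus libraries for 30 of 36 members, as they were for 32.0% of all genes, and above them for 0 of 36 (25.6% of all genes). The median log2 fold change was -0.57 for the core and -0.52 for the regulatory particle, against -0.08 for all genes tested. These contrasts share the spread estimated over all 8 C57BL/6 libraries, and a fold change on the log2(FPKM + 1) scale understates that of low genes.

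**Figure D2:**
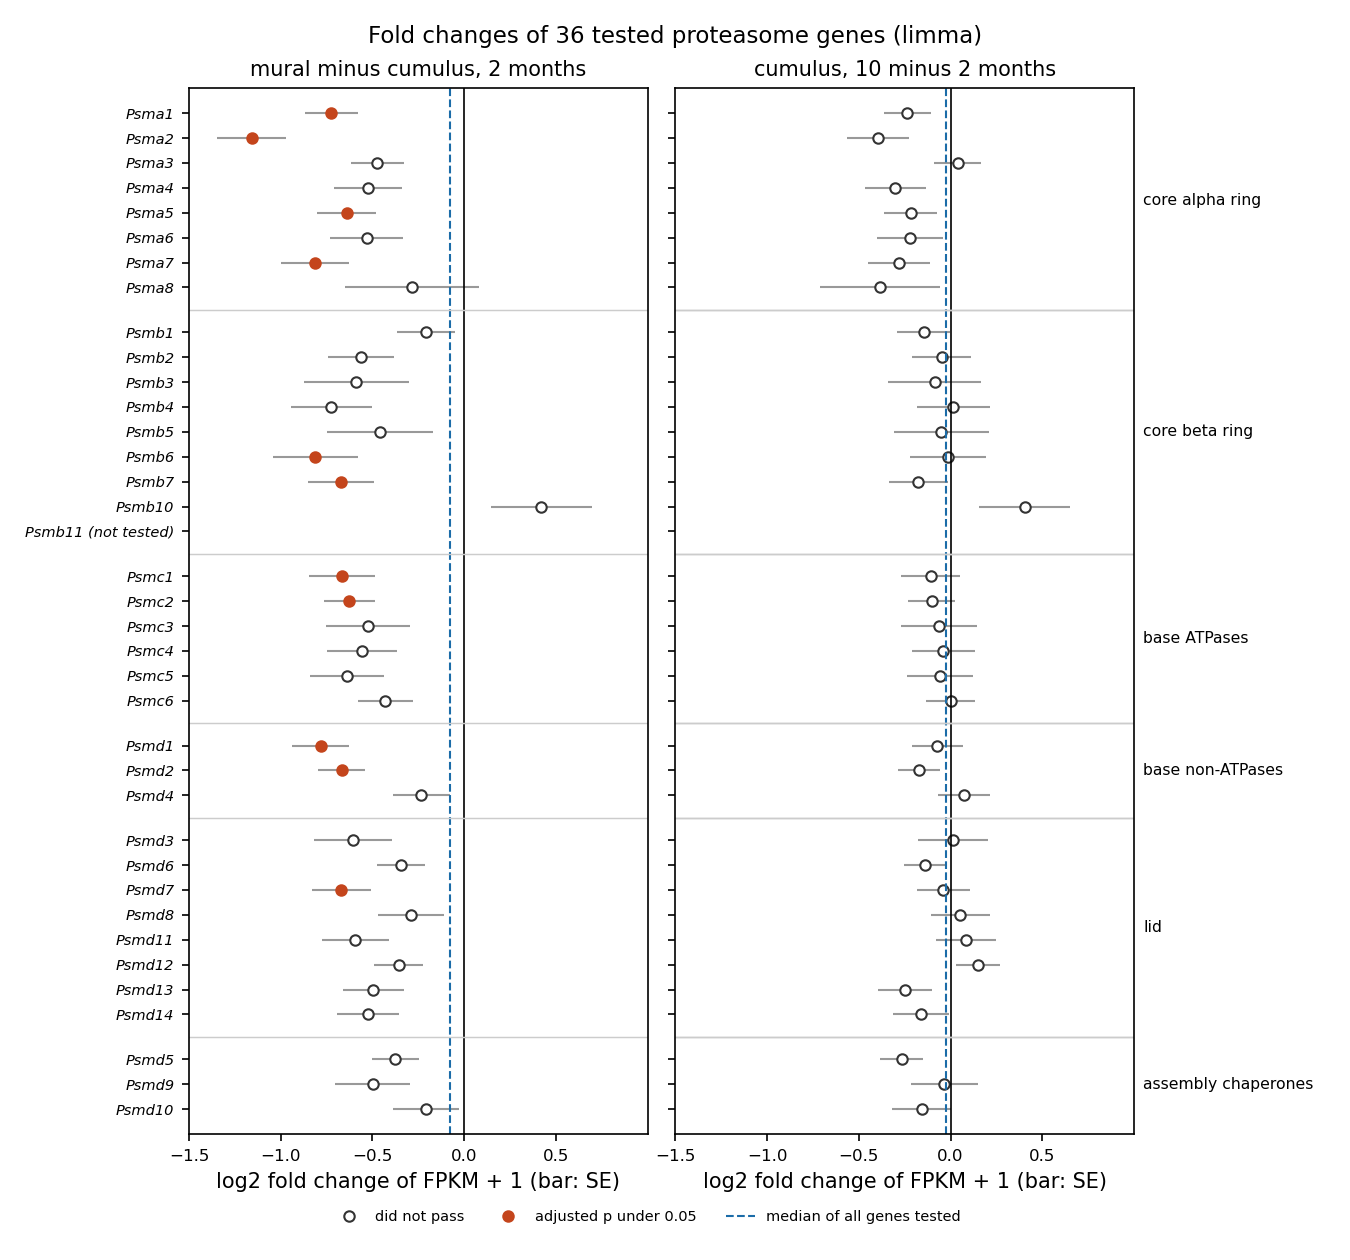
Log2 fold change of FPKM + 1 with its standard error for each tested member, mural minus cumulus cells at 2 months (left) and cumulus cells at 10 minus 2 months (right); filled points passed at an adjusted p under 0.05 and the dashed line is the median of all genes tested. On the left 35 of 36 points lie below 0 and 11 are filled, and on the right none is filled.

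In the alpha ring, 4 of 8 members passed as lower in mural cells (50%, against 11.2% of all genes). Psma2 stood at 390.1, 378 and 363 FPKM in cumulus cells (replicates 1, 2 and 3, the order used for all gene values) and at 165 and 172 FPKM in mural cells. It had the largest difference of any member (log2 fold change -1.16 ± 0.19 SE, adjusted p = 0.00819), and its groups lay far apart. Psma1 stood at 168, 175 and 151 FPKM against 94.8 and 104 FPKM (log2 fold change -0.72 ± 0.14, adjusted p = 0.0137). Psma7, the alpha subunit that Psma8 replaces in testis, stood at 268, 268 and 220.0 FPKM against 134 and 152 FPKM (log2 fold change -0.81 ± 0.19, adjusted p = 0.0217). Groups did not overlap for either gene. Psma5 also passed (127 ± 10.2 against 80.9 ± 7.26 FPKM, log2 fold change -0.64, adjusted p = 0.0287). Psma3 (log2 fold change -0.47, adjusted p = 0.0541), Psma4 (-0.52, adjusted p = 0.0800) and Psma6 (-0.53, adjusted p = 0.0950) did not pass, with their groups apart, and the groups of Psma8 overlapped (-0.28).

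In the beta ring, 2 of 8 tested members passed as lower (25%, against 11.2% of all genes), and both carry proteolytic sites. Psmb6, the caspase-like subunit, stood at 245, 227 and 183 FPKM in cumulus cells and at 113 and 134 FPKM in mural cells (log2 fold change -0.81 ± 0.23, adjusted p = 0.0435). Psmb7, the trypsin-like subunit, stood at 272, 268 and 264 FPKM against 154 and 183 FPKM (log2 fold change -0.67 ± 0.18, adjusted p = 0.0352). Mural libraries were below all cumulus libraries for both genes. Psmb5, the chymotrypsin-like subunit, stood at 213, 195 and 135 FPKM against 113 and 148 FPKM, so that its groups overlapped and it did not pass (log2 fold change -0.46 ± 0.29, adjusted p = 0.293). Psmb10, which takes the place of Psmb7 in immunoproteasomes, was the one member with a fold change above 0: it stood at 14.3, 8.55 and 7.62 FPKM against 12.4 and 14.5 FPKM, overlapped and did not pass (0.42 ± 0.28, adjusted p = 0.316). The structural subunits Psmb4 (log2 fold change -0.72, adjusted p = 0.0537), Psmb2 (-0.56, adjusted p = 0.0623), Psmb3 (-0.59, adjusted p = 0.180) and Psmb1 (-0.21, adjusted p = 0.392) did not pass, with their groups apart.

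In the base, 4 of 9 members passed as lower (11.2% of all genes): 2 of 6 ATPases (33.3%) and 2 of 3 others (66.7%). Among its ATPases, Psmc2 stood at 97.2, 99.6 and 84.3 FPKM in cumulus cells and at 56.2 and 64.5 FPKM in mural cells (log2 fold change -0.63 ± 0.14, adjusted p = 0.0204), and Psmc1 also passed (138 ± 6.52 against 86.7 ± 13.4 FPKM, log2 fold change -0.67, adjusted p = 0.0357). Psmc3, Psmc4, Psmc5 and Psmc6 had fold changes of -0.43 to -0.64 with groups apart and did not pass. Psmd1, a scaffold of the base, stood at 87.7, 97.4 and 84.6 FPKM against 45.7 and 58.7 FPKM (log2 fold change -0.78 ± 0.16, adjusted p = 0.0143). Psmd2, the docking site for shuttle proteins that bring ubiquitinated substrates, stood at 156, 146 and 139 FPKM against 88.0 and 96.2 FPKM (log2 fold change -0.67 ± 0.13, adjusted p = 0.0128). Each mural library was below each cumulus library for both scaffolds. Psmd4, a ubiquitin receptor, overlapped between the groups, at 117, 104 and 113 FPKM against 84.7 and 105 FPKM (log2 fold change -0.23, adjusted p = 0.327).

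In the lid, 1 of 8 members passed as lower (12.5%, near the 11.2% of all genes). Psmd7, the partner of the lid's deubiquitinase, stood at 110.1, 112 and 101 FPKM in cumulus cells and at 66.0 and 68.6 FPKM in mural cells (log2 fold change -0.67 ± 0.16, adjusted p = 0.0244), with a clear gap between the groups. Psmd14, the deubiquitinase itself, stood at 75.3, 83.2 and 73.1 FPKM against 46.5 and 61.1 FPKM and did not pass (-0.52 ± 0.17, adjusted p = 0.0628). Psmd11, Psmd3, Psmd13, Psmd12 and Psmd6 had fold changes of -0.34 to -0.61 with groups apart, and Psmd8 overlapped (-0.29). Of the assembly chaperones, 0 of 3 passed in limma (11.2% of all genes as lower), and 2 were at an unadjusted p under 0.05. Psmd9 had -0.50, Psmd5 -0.38 and Psmd10 -0.21.

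The count of members that passed depended on single libraries and on the scaling, while the direction changed for few. Without mural replicate 1 or without mural replicate 2, 0 of 36 members passed (2.85 and 0.234% of all genes as lower; the lone mural library is then assumed to vary like the other groups). Without cumulus replicate 2 at 2 months 2 did (Psma2 and Psmd2; 4.3% of all genes as lower), without replicate 1 there 4 did (Psma1, Psma2, Psmd1 and Psmd2; 6.65%), and without replicate 3 at 10 months 19 did (14.4%). In each case 35 of 36 members were below 0. With every library rescaled to the same summed FPKM, the median of all genes moved from -0.08 to 0.14, 5 of 36 members passed (Psma1, Psma2, Psma7, Psmd2 and Psmd7; 6.53% of all genes passed as lower), and Psmb1, Psmd4 and Psmd10 joined Psmb10 above 0. Relative to the median of all genes, the core stood at -0.50 and the regulatory particle at -0.45, and after this rescaling at -0.46 and -0.41. Rescaling moves all genes of a library nearly alike, so it could change these distances little. With quantile normalization they were -0.35 and -0.29, and among genes with a mean of at least 5 FPKM -0.44 and -0.38. Library weights gave larger distances, -0.59 and -0.52. With the oocyte markers as a covariate 11 members passed (8.57% of all genes as lower), of which 10 were among those above (not Psmb7).

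Markers of other cells also differed between mural and cumulus cells. Theca and stroma markers summed to 310.4 and 438 FPKM in the mural libraries and to 36.3 to 42.3 FPKM in the cumulus libraries at 2 months, with 8 of 10 passing as higher. Endothelial markers summed to 24.0 and 65.0 FPKM, against 1.60 to 5.15, with 5 of 6 higher and 1 of the 8 listed markers at 0 in all 3 cumulus libraries, and immune markers to 33.1 and 62.6 FPKM, against 8.83 to 11.8, with 4 of 9 higher. Erythroid markers summed to 82.5 and 141 FPKM, against 13.3 to 21.4, with 1 of 5 higher and 1 lower. Surface epithelium markers summed to 36.5 to 56.4 FPKM, against 26.9 to 34.9, with 1 of 8 passing as higher. Both mural libraries were above every cumulus library for 7 of these 8 (25.6% of all genes) and below for 1. That 1 was Krt8, the highest of them in each cumulus library (30.8, 24.1 and 22.4 FPKM, against 17.5 and 11.8). Of all genes, 9.69% passed as higher. The part of these cells in the proteasome values was not tested. For Psmd1, Psma5, Psmb7 and other members (9 in all), exons overlap another gene in the GENCODE M21 annotation, and Psmb5, Psmb6 and Psmb7 have named pseudogene copies. Reads of these genes may have been assigned to either locus, so their values are uncertain.

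**Figure D3:**
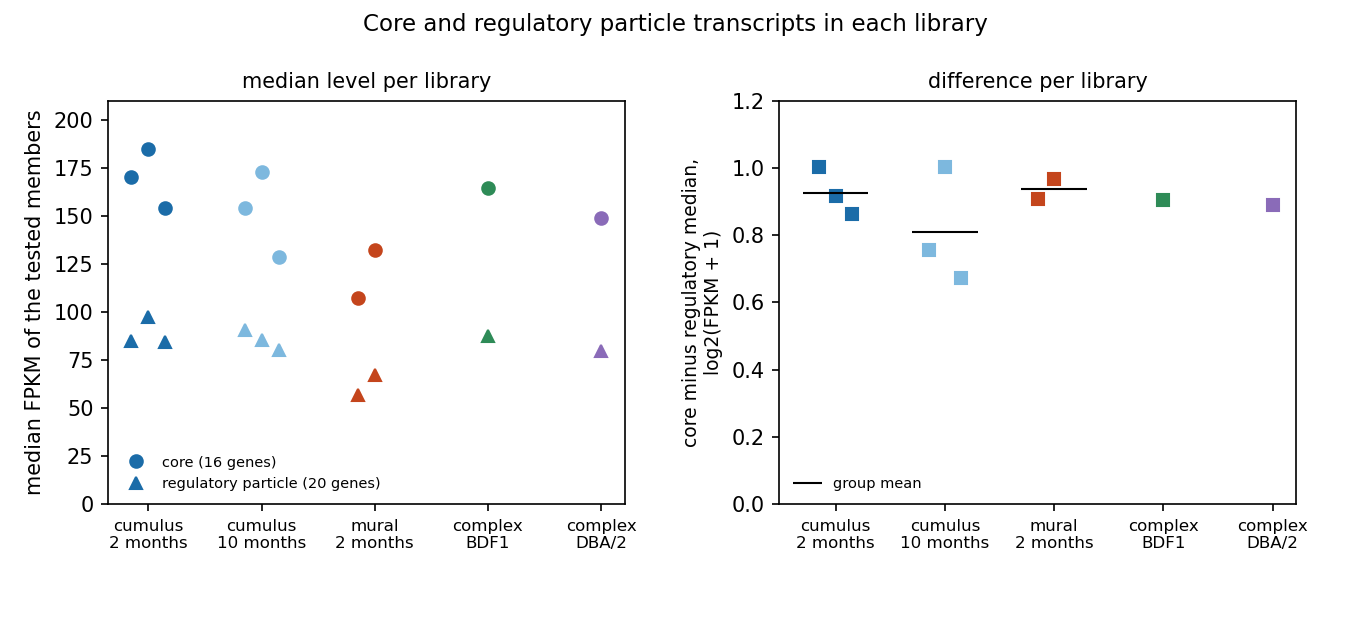
Median FPKM of the 16 tested core members (circles) and the 20 regulatory particle members (triangles) in each library (left), and the difference of the medians on the log2(FPKM + 1) scale with the group mean as a line (right). The mural libraries are low in both medians, and the difference between core and regulatory particle lies between 0.67 and 1.00 in all libraries.

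The medians of the core and of the regulatory particle were both lower in mural cells, and the distance between them stayed within the spread of the cumulus libraries. The median FPKM of the tested core members was 170.4, 185 and 154 in cumulus cells at 2 months, and that of the regulatory particle 84.6, 97.5 and 84.5. In mural cells these medians were 107 and 132 for the core and 56.5 and 67.2 for the regulatory particle, below all cumulus libraries at 2 months. At 10 months they were 154, 173 and 129 for the core, so that replicate 3 lay below the higher mural library, and 90.9, 85.6 and 80.2 for the regulatory particle. On the log2(FPKM + 1) scale, the core stood above the regulatory particle by 0.93 ± 0.07 in cumulus cells at 2 months (SD, n = 3), 0.81 ± 0.17 at 10 months (n = 3) and 0.94 ± 0.04 in mural cells (n = 2). The ranges of these differences overlapped, at 0.86 to 1.00, 0.67 to 1.00 and 0.91 to 0.97. The complexes had differences of 0.90 and 0.89, within the range of cumulus cells at 2 months. All members together made up 0.814 ± 0.0499% of the summed FPKM of cumulus cells at 2 months (SD, n = 3), and 0.576 and 0.697% of that of the mural libraries.

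A pair of other large assemblies was set beside the proteasome in the same contrast. Of the 8 genes of the cytosolic chaperonin, which folds actin and tubulin, 7 passed as lower (87.5%, against 11.2% of all genes). Their median log2 fold change was -0.77. Genes of mitochondrial ribosomal proteins had a median of -0.42, with 6 of 76 passing as lower (7.89%, under the share of all genes). Of the 76, 70 were below 0 (92.1%, against 56.1% of all genes). Proteasome members lay between these lists, with a median of -0.54, and no difference between the lists was tested.

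Genes that supply or assist the proteasome were followed in the same contrast. Ddi2, the protease that releases the transcription factor NFE2L1 from its membrane-bound precursor, stood at 51.2, 51.5 and 54.5 FPKM in cumulus cells and at 18.9 and 17.8 FPKM in mural cells. This difference was larger than that of any proteasome member (log2 fold change -1.46 ± 0.20, adjusted p = 0.00577). Nfe2l1 itself, which drives proteasome genes when the proteasome is impaired, overlapped, at 166, 150.2 and 126 FPKM against 160.0 and 155 FPKM (0.10 ± 0.17, adjusted p = 0.707). Nfe2l2, which drives the response to oxidative stress, did not pass either (0.33, adjusted p = 0.316). Its mural libraries (38.8 and 46.8 FPKM) were both above every cumulus library (31.1, 35.3 and 34.7 FPKM).

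Rps27a, a fusion of ubiquitin with a ribosomal protein, passed as lower in mural cells (1256 ± 97.4 FPKM in cumulus and 724 ± 2.61 FPKM in mural cells, log2 fold change -0.79, adjusted p = 0.0364). Of the shuttles and the unfoldase VCP with its cofactors, 4 of 9 passed as lower (44.4%, against 11.2% of all genes). They were Ufd1l (-0.49), Rad23b (-0.64), Vcp (-0.52) and Nploc4 (-0.61). Adrm1, a ubiquitin receptor of the base without a Psmd symbol, just missed the threshold (116 ± 8.89 against 69.3 ± 4.57 FPKM, -0.74, adjusted p = 0.0530), and the lid subunit Shfm1 had -0.42 (adjusted p = 0.229).

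Of the alternative activators and the inhibitor Psmf1, 1 of 5 passed as lower (20%, against 11.2% of all genes). It was Psme3, the nuclear activator, at 58.8 ± 5.43 against 39.0 ± 2.91 FPKM (log2 fold change -0.58, adjusted p = 0.0347). Psmf1 had -0.39 (adjusted p = 0.0806). The interferon-inducible activators Psme1 (-0.05, adjusted p = 0.860) and Psme2 (-0.24, adjusted p = 0.444) overlapped between the groups, as did Psmb8 (-0.17, adjusted p = 0.638). Psmb9 (-0.84 ± 0.48, adjusted p = 0.243) was lower in both mural libraries than in any cumulus library at 2 months, without passing. Of 7 other assembly factors, 1 passed as lower (14.3%, near the 11.2% of all genes). It was Psmg1, a chaperone of the alpha ring (50.3, 39.8 and 37.7 against 21.4 and 27.1 FPKM, -0.78, adjusted p = 0.0428). AI314180 had -0.35 (adjusted p = 0.220). Of the deubiquitinases and cofactors bound to the proteasome, 0 of 5 passed in limma (11.2% of all genes as lower). At an unadjusted p under 0.05 there was 1. Uchl5 had -0.50 (adjusted p = 0.111) and Usp14 -0.37 (adjusted p = 0.189).

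Cumulus cells of 10 and 2 months were compared to ask how age relates to these transcripts. No member passed: 0 of 36, and 0 of 12412 genes overall (limma; at an unadjusted p under 0.05, 2 members, Psma2 and Psmd5, both lower, and 6.19% of all genes as lower and 13.9% in either direction). The fold change was below 0 for 27 of 36 members (53.4% of all genes), with a median of -0.16 for the core, -0.06 for the regulatory particle and -0.02 for all genes tested. Groups were apart and lower at 10 months for 5 members (Psma1, Psma2, Psmd2, Psmd5 and Psmd6) or 13.9% (8.88% of all genes), and apart and higher for Psmd12 (8.93% of all genes). Immune markers summed to 41.6 to 106 FPKM at 10 months and 8.83 to 11.8 FPKM at 2 months, and theca and stroma markers to 72.1 to 146 and 36.3 to 42.3 FPKM. Surface epithelium markers summed to 58.4 to 118 and 26.9 to 34.9 FPKM, with 8 of 8 fold changes above 0, and mural markers to 117 to 1058 and 73.0 to 98.0 FPKM, with 6 of 7 at an unadjusted p under 0.05. Endothelial markers summed to 4.45 to 21.4 and 1.60 to 5.15 FPKM, and erythroid markers to 21.9 to 136 and 13.3 to 21.4 FPKM. No marker of these 6 lists passed adjustment (limma), and their part in the proteasome values was not tested. This comparison shares its cumulus libraries at 2 months with the comparison of mural cells.

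The core members with the smallest p for age were Psma2, Psma1 and Psma4. Psma2 stood at 272, 362 and 239 FPKM at 10 months, against 390.1, 378 and 363 at 2 months, so that the highest library at 10 months came close to the lowest at 2 months (log2 fold change -0.39 ± 0.17, adjusted p = 0.357). Psma1 stood at 146, 149 and 125 FPKM at 10 months, against 168, 175 and 151 (-0.24 ± 0.13, adjusted p = 0.458). Psma4 overlapped, at 116, 160.2 and 132 FPKM against 159, 183 and 158 (-0.30 ± 0.17, adjusted p = 0.467). In each of these genes replicate 1 or 3 was the lowest at 10 months and replicate 2 the highest.

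Of the regulatory particle, the assembly chaperone Psmd5 stood at 25.3, 24.9 and 21.9 FPKM at 10 months and at 30.7, 29.5 and 27.0 FPKM at 2 months, without overlap (log2 fold change -0.27 ± 0.11, adjusted p = 0.358). Psmd2 stood at 138, 129.8 and 123 FPKM against 156, 146 and 139 FPKM, again without overlap (-0.17 ± 0.11, adjusted p = 0.554). The lid subunit Psmd13 overlapped, at 58.7, 56.3 and 47.7 FPKM against 65.6, 72.5 and 55.9 FPKM (-0.25 ± 0.15, adjusted p = 0.501). Psmd12, another lid subunit, was the one member higher in every library at 10 months, at 73.3, 65.6 and 64.0 FPKM against 60.3, 62.7 and 59.6 FPKM (0.15 ± 0.12, adjusted p = 0.623).

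The catalytic subunits overlapped between the ages. Psmb5 stood at 216, 188 and 125 FPKM at 10 months (log2 fold change -0.05 ± 0.26), Psmb6 at 264, 228 and 163 FPKM (-0.02 ± 0.21) and Psmb7 at 236, 285 and 198 FPKM (-0.17 ± 0.16), and each overlapped the libraries at 2 months. Psmb10 stood at 15.3, 10.2 and 14.9 FPKM, with the largest fold change above 0 among the members (0.40 ± 0.25, adjusted p = 0.515) and with overlap. Replicate 3 at 10 months, which stood apart in its markers, was the lowest of its group for 33 of 36 members; without it 17 of 36 members were below 0, and the medians were -0.05 for the core and 0.05 for the regulatory particle. No member passed in any of the alternatives tried for this contrast.

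**Figure D4:**
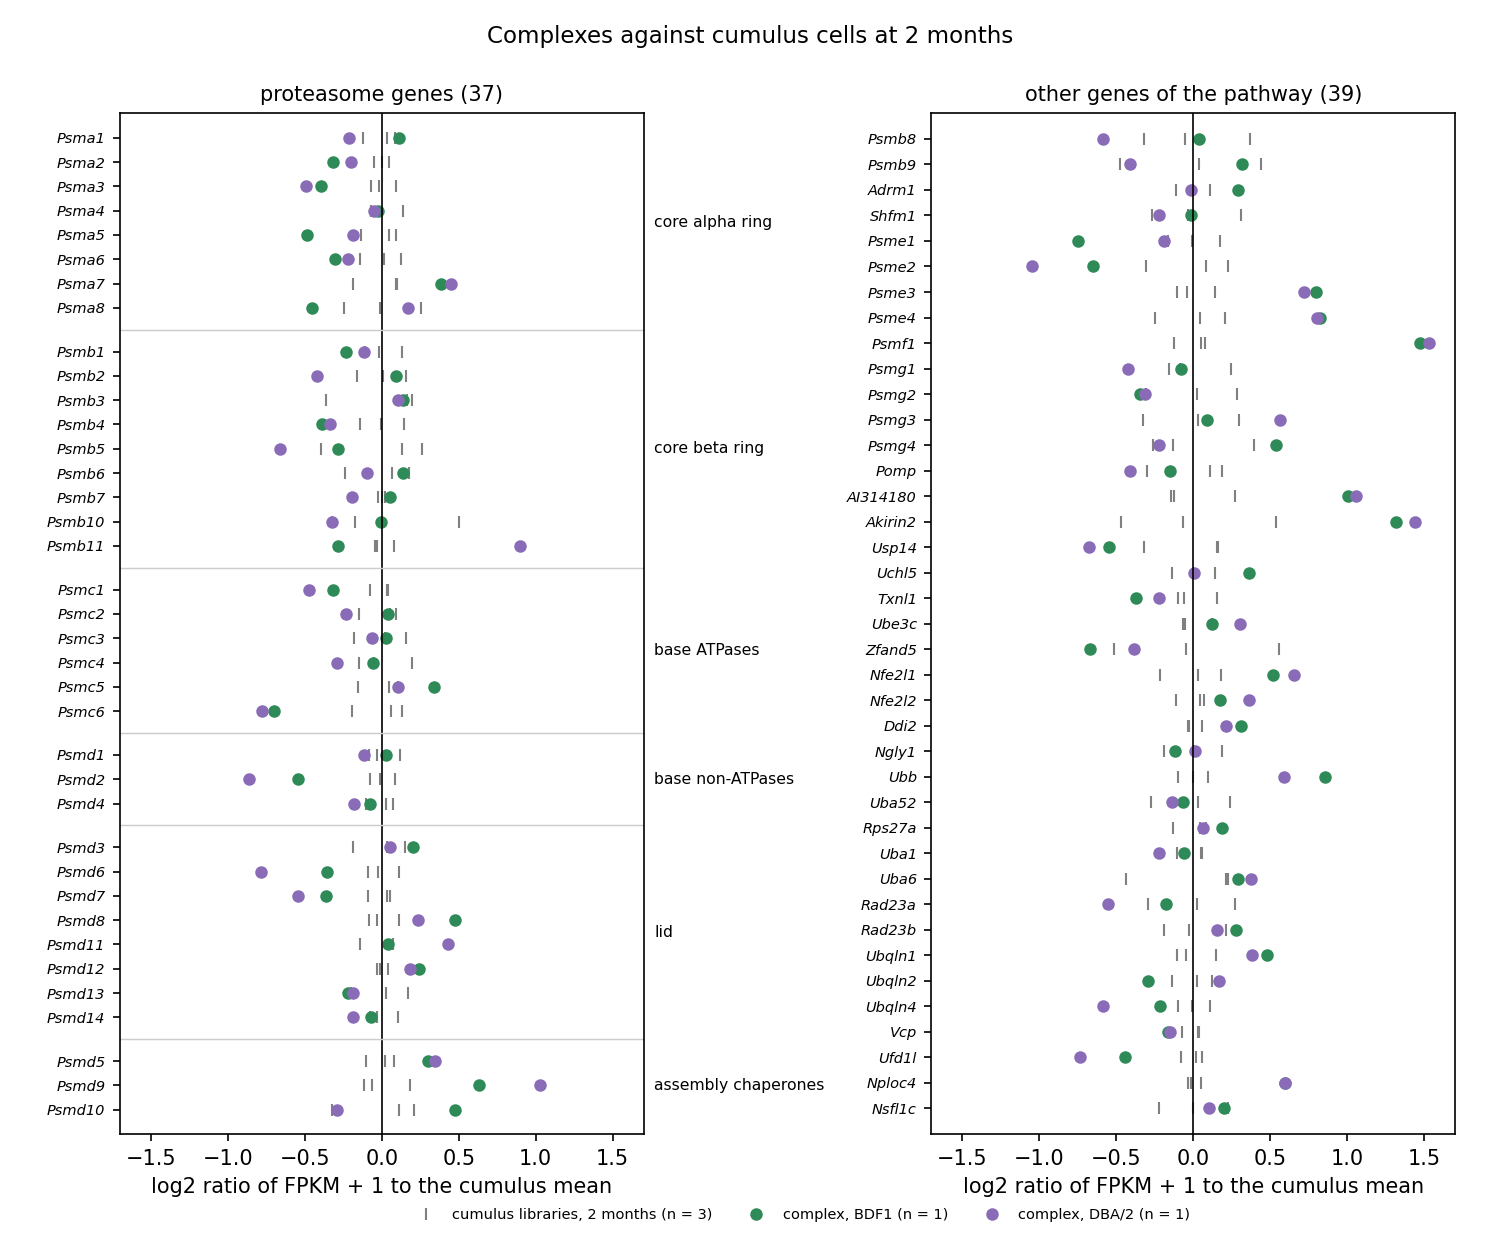
Log2 ratio of FPKM + 1 of each complex library to the mean of cumulus cells at 2 months for the 37 proteasome genes (left) and 39 other genes of the pathway (right); grey marks are the 3 cumulus libraries. Psmd9 lies highest and Psmc6, Psmd2 and Psmd6 lie lowest among the tested members on the left, and Psmf1, Akirin2 and AI314180 lie furthest to the right in both complexes on the right.

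The complexes were set beside cumulus cells at 2 months to describe the same genes in RNA that includes the oocyte. With 1 library per strain there was no test, and strain, age, priming and the oocyte cannot be told apart. For the proteasome members the median log2 ratio was -0.13 in BDF1 and -0.20 in DBA/2 for the core, and 0.03 and -0.18 for the regulatory particle, against 0.12 and 0.10 for all genes. Both complexes were below every cumulus library for 11 of 36 members (18.3% of all genes) and above for 6 (34.1%). Only Psmd9 was at least 1.5-fold higher in both complexes (16.2% of all genes), and only Psmc6 at least 1.5-fold lower in both (5.76%).

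A chaperone, an alpha subunit and a lid subunit stood furthest above. Psmd9, which assists base assembly, stood at 22.7 FPKM in BDF1 and 30.2 FPKM in DBA/2, against 16.3, 13.6 and 13.1 FPKM in the cumulus libraries (log2 ratios 0.63 and 1.03). Psma7 stood at 328 and 343 FPKM against 268, 268 and 220.0 FPKM (0.38 and 0.45), and Psmd8 of the lid at 106 and 89.0 FPKM against 81.5, 71.4 and 74.0 FPKM (0.48 and 0.23). All 3 were above each cumulus library in both complexes. The other members above the cumulus range in both were Psmc5, Psmd5 and Psmd12.

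Furthest below were an ATPase, the shuttle dock and a lid subunit. Psmc6 stood at 55.8 and 52.7 FPKM in the complexes, against 79.4, 100.1 and 95.1 FPKM (log2 ratios -0.70 and -0.78), below both mural libraries too. Psmd2 stood at 100.3 and 80.3 FPKM against 156, 146 and 139 FPKM (-0.54 and -0.86), and Psmd6 at 60.7 and 44.7 FPKM against 76.4, 84.4 and 73.2 FPKM (-0.35 and -0.79). Subunits of 1 ring thus stood on both sides: among the ATPases Psmc5 was above (0.34 and 0.11) and Psmc6 below, and in the alpha ring Psma7 was above and Psma3 (-0.40 and -0.50) and Psma5 (-0.49 and -0.19) below. The highest and lowest of the standard core subunits, leaving out Psma8 and Psmb10, differed by 3.65 and 3.79 times in the complexes, against 2.81 to 3.21 times in cumulus cells at 2 months and 2.17 and 2.21 times in mural cells.

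In both complexes 3 genes around the proteasome had larger ratios than any tested member. The inhibitor and assembly factor Psmf1 stood at 34.9 and 36.3 FPKM, against 12.4, 10.9 and 12.6 FPKM in the cumulus libraries (log2 ratios 1.47 and 1.53). Akirin2, which brings proteasomes into the nucleus, stood at 91.2 and 99.4 FPKM against 34.3, 25.7 and 52.7 FPKM (1.32 and 1.44), and AI314180, the gene of the proteasome adaptor ECM29, at 44.0 and 45.7 FPKM against 19.5, 19.3 and 26.1 FPKM (1.00 and 1.06). Each was above every cumulus library. In the cumulus libraries AI314180, Akirin2, Psme3, Psme4 and, narrowly, Psmf1 were highest in replicate 3, which also had the highest sum of oocyte markers. Psmd9, Psma7, Psmc5, Psmd5, Psmd12 and Nfe2l1, also higher in both complexes, were lowest in that replicate, and Psmd8 was in between. The part of oocyte RNA in these values was not tested. The nuclear activators Psme3 (0.80 and 0.72) and Psme4 (0.83 and 0.80) were above the cumulus range as well, and the interferon-inducible Psme2 (-0.65 and -1.05) was below it, at 66.8 and 50.5 FPKM against 124, 112 and 85.0 FPKM in the cumulus libraries. Nfe2l1 stood at 209.9 and 232 FPKM against 166, 150.2 and 126 FPKM (0.51 and 0.66).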

How the data were processed

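The authors' deposited table holds FPKM for the 10 libraries; the submitters' processing notes name Cufflinks 2.1.0, TopHat2 2.1.0 and build mm9. Which annotation was used, whether strand was counted and the read depth were not given in these sources, so no counting error is given. Values were set to log2(FPKM + 1). Genes with a mean of at least 1 FPKM over the 8 C57BL/6 libraries (12412) were fitted in limma (version 3.58.1, R 4.3.3, trended variance) with 1 coefficient per group, leaving 5 residual degrees of freedom. Two-sided p-values were adjusted over all genes (Benjamini-Hochberg), with a threshold of 0.05. The model was tested on simulated data. For mural cells and for age, 45 and 48% of genes with a true log2 change of 1 were recovered. With a change of 2, 81 and 94% were. Of 12212 unchanged genes, 9 and 3 were called. Smaller changes, such as those of most members, were not simulated, so members that did not pass may still differ. Members, lists and tests were chosen with earlier results of these data known. Values in every library are given for the catalytic subunits, for the 3 core and 4 regulatory members with the smallest p in each contrast, and for the 3 highest and 3 lowest members in the complexes; from other pathway lists the 2 genes with the smallest p and 5 genes fixed by name (Psmb8, Psmb9, Psme1, Psme2 and Nfe2l1) are named. One gene that this rule names is not reported here. Other genes named singly were chosen after their values were seen. Promoters are from RefSeq. Alternatives changed the pseudocount, filter, scaling, trend, weights, groups in the fit, replicate block, oocyte covariate and libraries.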

Additional observations from a re-analysis of the deposited data

How the results depend on the processing

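Each contrast was recomputed under 22 alternatives. For mural against cumulus cells, 2599 calls among all genes became 5425 with library weights, and ranged from 99 to 3253 when libraries were left out one at a time. The members that passed (in parentheses, the share of all genes passing as lower, 11.2% as reported) were 5 when rescaled to the same sum (6.53%), 7 with median centring (8.5%), 18 with only the groups of the contrast (14.3%), 30 with library weights (24.5%) and 21 without replicate 3 of both cumulus groups (14.1%), and 0 to 19 without single libraries (0.234 to 14.4%). Whether the replicate numbers pair the samples was not settled. Correlations of deviations from group means were -0.05 to 0.21 between same-numbered libraries and -0.21 to 0.17 between the others. Between cumulus cells of 2 and 10 months they were 0.006 to 0.147 and -0.138 to 0.040. With a replicate block 27 members passed, including all 11, and 16.5% of all genes passed as lower. The medians of the core and regulatory members moved to -0.32 and -0.27 when rescaled, and the regulatory median to -0.31 with Mir and Snor genes left out and to -0.34 with quantile normalization; without single libraries they ranged from -0.72 to -0.46 and from -0.63 to -0.41. The median of all genes changed sign when rescaled (0.14) and with Mir and Snor genes left out (0.11).

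For age, calls among all genes were 69 with library weights, 7 without replicate 3 of both cumulus groups and 0 to 245 without single libraries, and 0 members passed in each. The regulatory median turned to 0.0140 with library weights, to 0.0147 without replicate 3 of both groups and to 0.0521 without replicate 3 at 10 months, and ranged from -0.15 to 0.05 without single libraries; the core median ranged from -0.27 to -0.05. In the complexes, the BDF1 regulatory median turned to -0.11 with Mir and Snor genes left out, -0.10 with quantile normalization and -0.20 with median centring, and the BDF1 core median moved to -0.26 and -0.36 with the first and last of these. With median centring the DBA/2 medians were -0.42 (core) and -0.41 (regulatory). The causes were not tested. Without single libraries the core medians ranged from -0.23 to -0.10 (BDF1) and from -0.24 to -0.16 (DBA/2), and the regulatory medians from -0.05 to 0.06 and from -0.20 to -0.12. Depth is unknown.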
